A study of Mus musculus with 8 samples.

Results

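The 39 genes described here encode the core of the AMPK, mTOR and sirtuin nutrient sensing systems. They were taken by symbol from the table of 45706 mouse genes, and every symbol matched 1 row. By role they are 6 AMPK subunits, 5 upstream kinases and partners of AMPK, 6 subunits of the mTOR complexes, 4 genes of the TSC complex and Rheb, 4 Rag GTPases, 5 Ragulator subunits, 4 AKT and S6 kinases and 5 sirtuins. The study concerns mitochondrial fission factor (MFF) in AgRP neurons, the arcuate neurons that promote feeding. The libraries analysed here are 4 ribosome immunoprecipitates (IP) and 4 inputs from hypothalamus dissected around the arcuate nucleus. Both fractions carry the genotype Mfffl/fl together with AgRP-IRES-Cretg/wt and RpL10a-GFPfl/wt, in which Cre made from the Agrp locus deletes Mff and switches on a GFP-tagged ribosomal protein RpL10a in the same cells. The IP is RNA held by anti-GFP beads in translating ribosome affinity purification (TRAP), and the input is RNA of the whole homogenate. Each library pools 3 mice of both sexes, 11 to 12 weeks old and killed in the random-fed state. Mice that keep Mff are not analysed here, so every comparison is IP against input within the Mff deletion and none measures its effect.

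AMPK is a kinase of 3 subunits that is activated when cellular energy falls. Its catalytic alpha subunit is phosphorylated by LKB1 (gene Stk11), held in a complex with STRAD and MO25, or by the calcium-dependent kinases CaMKK1 and CaMKK2. The gamma subunit binds adenine nucleotides and the beta subunit is the scaffold. MFF is itself a substrate of AMPK. The mTOR kinase works in complex 1, with raptor, and in complex 2, with rictor. Complex 1 is recruited to the lysosome by Rag GTPases anchored by Ragulator when amino acids are plentiful, and is activated there by Rheb, which the TSC complex holds in check. Sirtuins are NAD-dependent deacylases of the nucleus, cytosol and mitochondria. In AgRP neurons, AMPK and mTOR are known as sensors through which hunger and satiety signals act.

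Depth was 39902127 to 64757979 estimated counts per IP library and 44112823 to 74607637 per input library. Levels are in CPM, the count of a gene set to a common library size, here with TMM scaling factors. Agrp averaged 843 ± 170.0 CPM in IP and 3.35 ± 0.741 CPM in input (SD, n = 4 each), and all 12 markers of AgRP neurons were higher in IP. Mff, the targeted gene, averaged 68.4 ± 3.10 CPM in IP and 124 ± 8.69 CPM in input (SD, n = 4 each). Reads outside the deleted exons still count, so this level does not check the deletion. Markers of other cells were depleted but present. The 12 astrocyte markers summed to 1100.0 to 1485 CPM in IP and 3467 to 4272 CPM in input, and the 12 oligodendrocyte markers to 634 to 923 CPM in IP and 2245 to 2829.9 CPM in input, with every one of these 24 genes lower in IP. Of the other lists, 7 of 8 oligodendrocyte precursor markers, 10 of 12 microglia markers, 5 of 14 vascular markers and 6 of 11 tanycyte and ependymal markers were lower, as were 10 of 12 markers of the remaining arcuate neurons, and no gene of these lists was higher. Of 12 pan-neuronal genes 4 were higher and 7 lower. No marker was at 0 in all 4 IP libraries. The part of these other cells in the results below was not tested. IP replicate 3 stood farthest from its group (chi-square per degree of freedom of 228 to 340.0 against the other IP libraries, against 48.4 to 62.1 among the rest).

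All 39 genes passed the filter on low counts, with estimated counts between 113 and 8770.0 per library. Of the 39, 12 were higher in IP, 8 were lower and 19 did not pass the threshold (adjusted p under 0.05, edgeR's quasi-likelihood test over 17000 genes). These are 30.8% and 20.5% of the genes, beside 24.5% higher, 20.9% lower and 45.4% called in either direction over all tested genes, so the shares lie near the background. The median log2 fold change (IP over input) was 0.06 over the 39 genes and -0.01 over all tested genes. With upper quartile factors in place of TMM, which shifted the median of all genes by -0.13, 11 members were higher and 10 lower, and the higher share of all calls was 43.3% in place of 54.1%. Under TMM and upper quartile factors alike, no Rag GTPase, Ragulator, TSC or Rheb gene was called lower and no sirtuin or upstream kinase gene was called higher, while with library totals alone Stk11 was called higher (0.40, adjusted p = 0.0177). Library totals shifted the median of all genes by 0.10. Apart from Prkaa2, each of the 20 called genes had 4 IP libraries on the same side of all 4 input libraries. For IP above input this held for 12 of the 39 genes, beside 24.1% of all tested genes, and for IP below input for 7, beside 24%. Of the called genes, 3 changed by more than 2-fold, namely Prkab2, Mtor and Lamtor4. In tissue RNA, fewer cells of a type and less RNA per cell cannot be told apart.

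**Figure D1:**
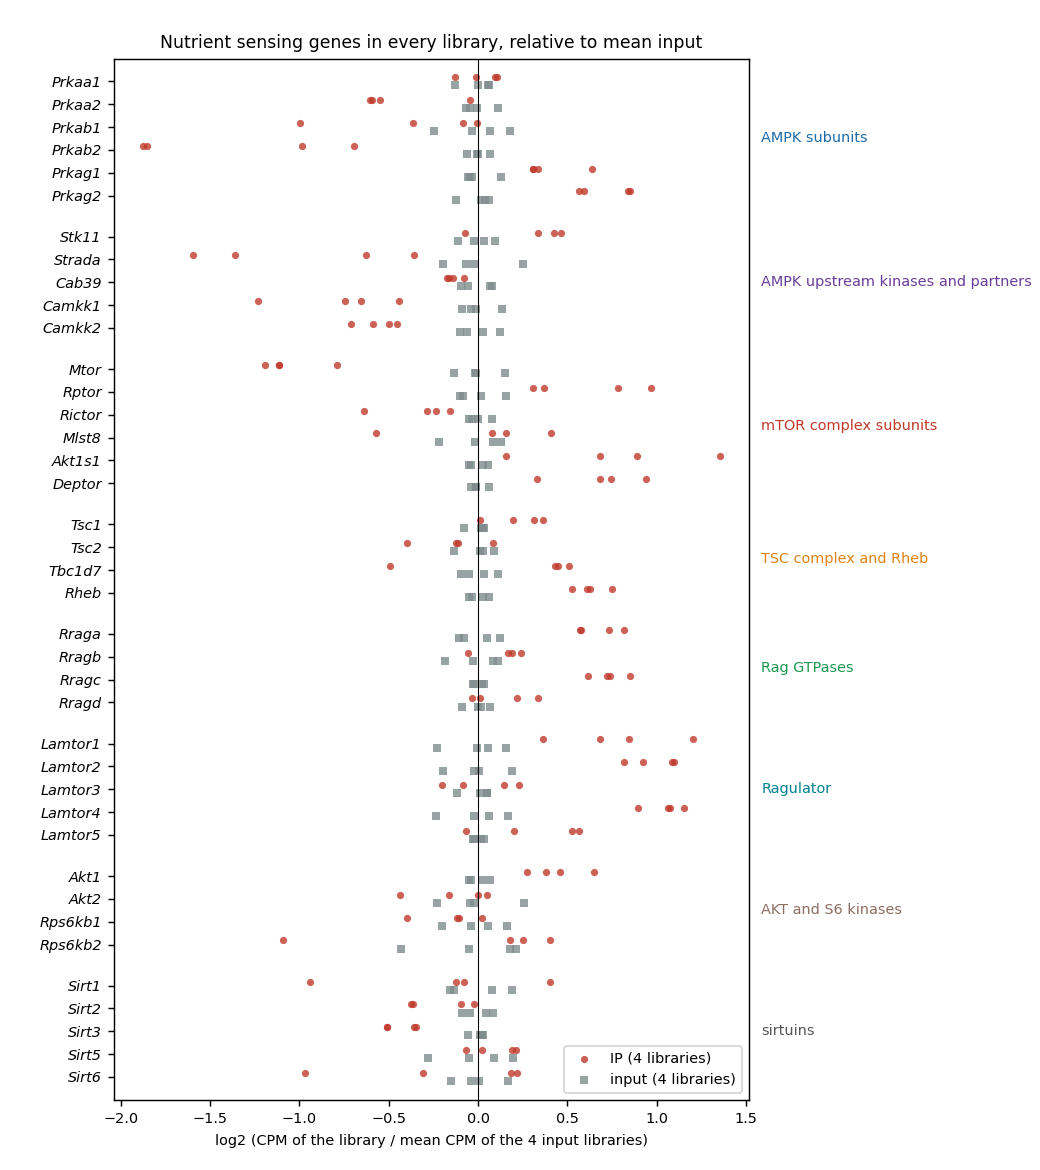
Level of each of the 39 genes in every library, as log2 of its CPM over the mean CPM of the 4 input libraries (horizontal axis), with genes grouped by role. Red circles are IP libraries and grey squares input libraries. The IP points of Prkab2, Mtor and Camkk1 all lie left of the input points, and those of Lamtor2, Lamtor4, Rragc and Rheb all lie right of them.

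Among the AMPK subunits the scaffold gene Prkab2 fell, both gamma genes Prkag1 and Prkag2 rose, and of the catalytic genes Prkaa2 was lower and Prkaa1 did not pass. Prkab2 (ENSMUSG00000038205, chr3:97658193-97673812, plus strand, as all gene positions in GRCm38 with GENCODE M21), which encodes beta 2, had 14.8, 18.1, 7.98 and 8.10 CPM in IP libraries 1 to 4, against 28.0, 29.1, 29.2 and 30.6 CPM in input libraries 1 to 4. Every IP library was below every input library, and IP libraries 3 and 4 were the lowest. Prkab2 stood at 41.8% of its input level, a log2 fold change of -1.26 ± 0.24 at an adjusted p of 0.00138 (± SE, n = 4 per fraction). The other scaffold gene, Prkab1, had 2.90, 5.77, 5.47 and 4.50 CPM in IP libraries 1 to 4, against 6.08, 5.65, 4.89 and 6.56 CPM in input libraries 1 to 4. Its groups overlapped, and its log2 fold change of -0.31 ± 0.25 did not pass (adjusted p = 0.329). The gamma 2 gene Prkag2 (ENSMUSG00000028944, chr5:24862744-25100642, minus strand) had 39.5, 32.7, 33.3 and 39.8 CPM in IP libraries 1 to 4, against 20.3, 22.4, 23.0 and 22.7 CPM in input libraries 1 to 4. All IP libraries were above all input libraries, with a log2 fold change of 0.72 ± 0.10 at an adjusted p of 0.000174. Prkag1, encoding gamma 1, had 23.5, 23.5, 24.0 and 29.6 CPM in IP libraries 1 to 4, against 18.3, 18.6, 18.4 and 20.8 CPM in input libraries 1 to 4, again with no overlap. Its log2 fold change was 0.40 ± 0.11 at an adjusted p of 0.0131, and it was not called with GC and length offsets (0.22, adjusted p = 0.124) or upper quartile factors (0.27, adjusted p = 0.0725). The alpha 2 gene Prkaa2 had 38.3, 54.2, 36.8 and 37.1 CPM in IP libraries 1 to 4, against 54.2, 60.4, 55.7 and 53.3 CPM in input libraries 1 to 4. IP library 2 lay among the input libraries and the other 3 IP libraries below them. The log2 fold change of Prkaa2 was -0.43 ± 0.13 at an adjusted p of 0.0167. That call ended with GC and length offsets (-0.05, adjusted p = 0.798), with library totals alone (-0.33, adjusted p = 0.0722) and without input replicate 2 (-0.38, adjusted p = 0.0592). Prkaa1, which encodes alpha 1, averaged 48.4 ± 3.62 CPM in IP and 47.8 ± 2.88 CPM in input (SD, n = 4 each), with overlapping groups. Its log2 fold change was 0.02 ± 0.09 at an adjusted p of 0.871, and it was called higher with GC and length offsets (0.42, adjusted p = 0.00174).

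Of the kinases and partners that act on AMPK, Camkk1, Camkk2 and Strada fell and the LKB1 gene Stk11 and the MO25 gene Cab39 did not pass. Camkk1 (ENSMUSG00000020785, chr11:73019008-73042073, plus strand), a calcium-dependent kinase gene, had 21.7, 17.5, 12.5 and 18.7 CPM in IP libraries 1 to 4, against 28.6, 32.2, 27.6 and 29.2 CPM in input libraries 1 to 4. The groups did not overlap, and the log2 fold change was -0.74 ± 0.15 at an adjusted p of 0.00222. Camkk2, the CaMKK known from mice to act in hypothalamic control of feeding, had 10.9, 11.3, 10.3 and 9.43 CPM in IP libraries 1 to 4, against 14.4, 14.8, 15.8 and 16.8 CPM in input libraries 1 to 4. It too was lower in each IP library than in any input library, with a log2 fold change of -0.56 ± 0.13 at an adjusted p of 0.00390. Strada, the pseudokinase partner of LKB1, had 5.40, 6.504, 2.76 and 3.24 CPM in IP libraries 1 to 4, against 9.92, 7.28, 7.94 and 8.19 CPM in input libraries 1 to 4. Its groups did not overlap, but the IP values ranged widely, and the log2 fold change was -0.90 ± 0.28 at an adjusted p of 0.0210. Strada lost its call with GC and length offsets (-0.48, adjusted p = 0.193) and without input replicate 1 (-0.79, adjusted p = 0.0753), input replicate 4 (-0.89, adjusted p = 0.0522) or IP replicate 4 (-0.77, adjusted p = 0.0530). Stk11 averaged 39.03 ± 6.14 CPM in IP and 31.7 ± 1.94 CPM in input (SD, n = 4 each), with a log2 fold change of 0.30 ± 0.12 at an adjusted p of 0.0626. In it IP library 3 was the lowest of the IP libraries, at 30.1 CPM and within the input range, and without that library Stk11 was called higher (0.41, adjusted p = 0.00236). Cab39 had a log2 fold change of -0.14 ± 0.07 at an adjusted p of 0.109, and was called lower with upper quartile factors (-0.27, adjusted p = 0.00484), RLE size factors (-0.17, adjusted p = 0.0493) and DESeq2 (-0.17, adjusted p = 0.0232).

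The subunits of the mTOR complexes moved in opposite directions. The kinase gene Mtor fell, while Rptor and the inhibitor genes Akt1s1 and Deptor rose. Mtor (ENSMUSG00000028991, chr4:148448611-148557683, plus strand) had 37.6, 35.5, 46.97 and 37.6 CPM in IP libraries 1 to 4, against 80.7, 90.3, 80.3 and 74.0 CPM in input libraries 1 to 4. The highest IP library, replicate 3, was far below the lowest input library, and Mtor stood at 48.5% of input with a log2 fold change of -1.04 ± 0.10 at an adjusted p of 9.54e-06. Rptor (ENSMUSG00000025583, chr11:119602905-119899576, plus strand), encoding the raptor scaffold of complex 1, had 61.8, 46.4, 70.1 and 44.4 CPM in IP libraries 1 to 4, against 40.0, 33.4, 33.9 and 36.2 CPM in input libraries 1 to 4. All IP libraries were above input, and replicates 1 and 3 were the highest, with a log2 fold change of 0.63 ± 0.14 at an adjusted p of 0.00392. Deptor (ENSMUSG00000022419, chr15:55112317-55259271, plus strand), whose product binds and restrains the mTOR kinase, had 118, 99.2, 104 and 77.7 CPM in IP libraries 1 to 4, against 61.4, 64.7, 60.2 and 61.4 CPM in input libraries 1 to 4. No IP library overlapped input, and the log2 fold change was 0.69 ± 0.11 at an adjusted p of 0.000404. Akt1s1, encoding the complex 1 inhibitor PRAS40, had 13.7, 11.9, 8.22 and 18.9 CPM in IP libraries 1 to 4, against 7.54, 7.69, 7.19 and 7.15 CPM in input libraries 1 to 4. IP library 3 lay just above the input range and library 4 farthest from it. The log2 fold change of Akt1s1 was 0.83 ± 0.22 at an adjusted p of 0.0105, or 0.57, adjusted p = 0.0589 with GC and length offsets. Rictor, the complex 2 scaffold gene, averaged 32.5 ± 4.47 CPM in IP and 40.5 ± 1.60 CPM in input (SD, n = 4 each) and was lower without overlap, at a log2 fold change of -0.32 ± 0.11 at an adjusted p of 0.0329. Rictor was called in 12 of 19 alternatives. Its call ended with GC and length offsets (-0.06, adjusted p = 0.659), with library totals alone (-0.21, adjusted p = 0.165) and without input replicate 1 (-0.28, adjusted p = 0.113), 2 (-0.32, adjusted p = 0.0752), 3 (-0.32, adjusted p = 0.0723) or 4 (-0.30, adjusted p = 0.0907). Mlst8, a subunit of both complexes, averaged 10.3 ± 2.70 CPM in IP and 9.88 ± 1.03 CPM in input (SD, n = 4 each) and had a log2 fold change of 0.06 ± 0.20 at an adjusted p of 0.835.

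**Figure D2:**
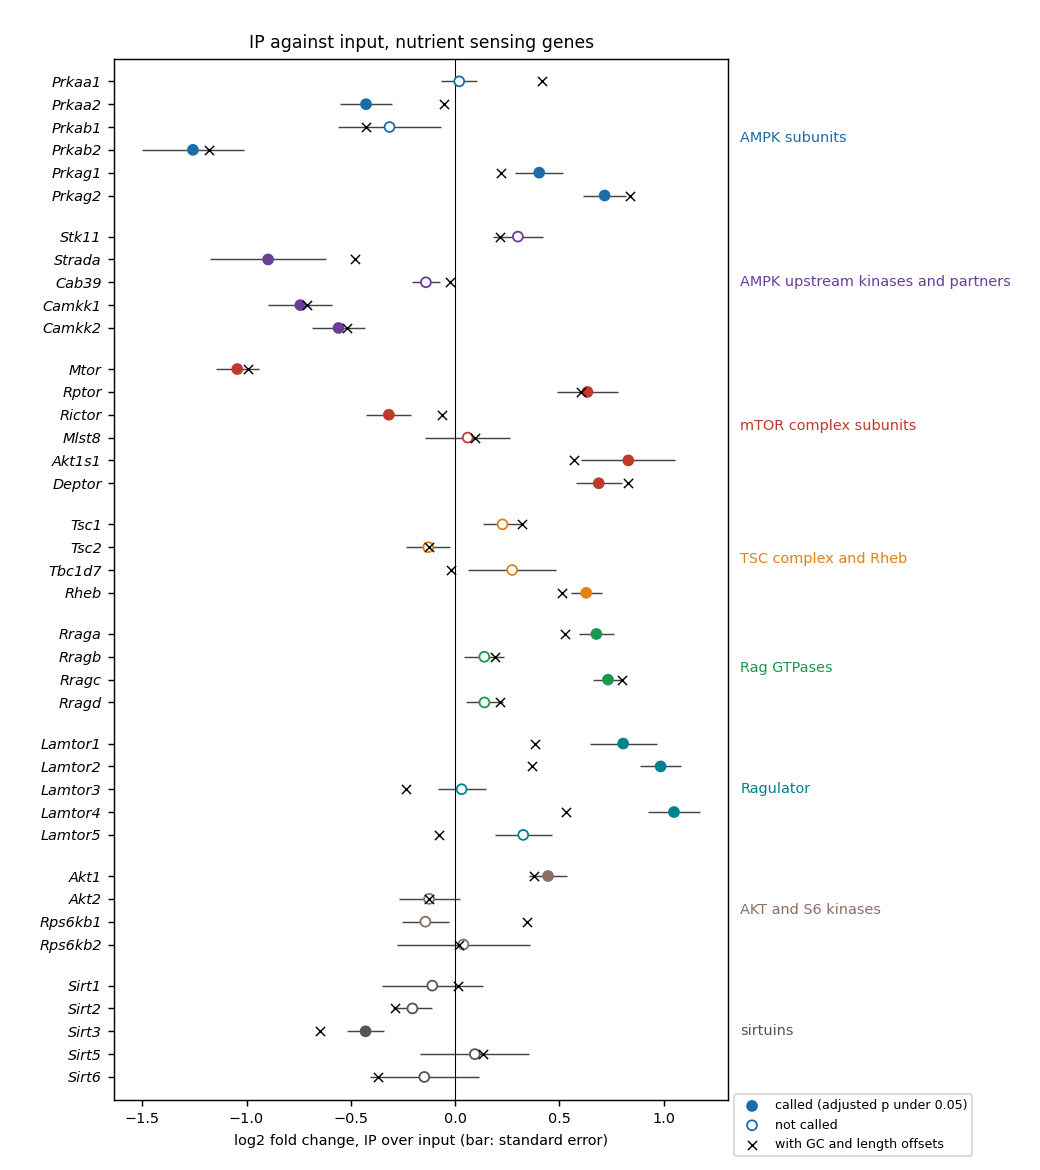
Log2 fold change of IP over input for the 39 genes (horizontal axis, bars are standard errors), grouped by role. Filled circles passed the threshold, open circles did not, and crosses give the value with GC and length offsets. Mtor at -1.04 and Prkab2 at -1.26 lie farthest left, Lamtor4 at 1.05 and Lamtor2 at 0.99 farthest right, and the crosses of all 5 Ragulator genes lie left of their circles.

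Rheb, the GTPase that activates mTOR complex 1, rose, while the 3 genes of the TSC complex that restrains it did not pass. Rheb (ENSMUSG00000028945, chr5:24802823-24842624, minus strand) had 74.7, 80.0, 79.2 and 87.2 CPM in IP libraries 1 to 4, against 54.1, 50.0, 52.9 and 50.6 CPM in input libraries 1 to 4. The groups were well apart, and the log2 fold change was 0.63 ± 0.07 at an adjusted p of 3.51e-05. Tsc1, encoding the scaffold hamartin, averaged 45.7 ± 4.82 CPM in IP and 39.1 ± 1.37 CPM in input (SD, n = 4 each), with a log2 fold change of 0.23 ± 0.09 at an adjusted p of 0.0659. It was called higher with GC and length offsets (0.32, adjusted p = 0.0244), with library totals alone (0.33, adjusted p = 0.0145) and without IP replicate 1 (0.29, adjusted p = 0.0130). Tsc2, encoding the GTPase-activating subunit tuberin, had a log2 fold change of -0.13 ± 0.11 at an adjusted p of 0.348. Tbc1d7, the third subunit, had 13.7, 13.5, 7.13 and 14.3 CPM in IP libraries 1 to 4, against 9.68, 10.2, 10.8 and 9.38 CPM in input libraries 1 to 4. IP library 3 was below every input library and the other IP libraries were above them. Its log2 fold change was 0.27 ± 0.21 at an adjusted p of 0.317, or 0.46, adjusted p = 0.00826 without IP replicate 3.

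Among the Rag GTPases, which work as pairs of RagA or RagB with RagC or RagD, Rraga and Rragc rose and Rragb and Rragd did not pass. Rraga (ENSMUSG00000070934, chr4:86575668-86577285, plus strand) had 103, 97.1, 86.7 and 86.9 CPM in IP libraries 1 to 4, against 63.6, 60.5, 54.2 and 55.3 CPM in input libraries 1 to 4. Rragc (ENSMUSG00000028646, chr4:123917446-123936997, plus strand) had 80.8, 74.8, 68.7 and 73.9 CPM in IP libraries 1 to 4, against 45.9, 44.1, 45.5 and 43.9 CPM in input libraries 1 to 4. In both genes the lowest IP library was above the highest input library. Their log2 fold changes were 0.68 ± 0.09 at an adjusted p of 6.28e-05 for Rraga and 0.73 ± 0.07 at an adjusted p of 1.15e-05 for Rragc. Rragb averaged 53.6 ± 4.72 CPM in IP and 48.6 ± 4.43 CPM in input (SD, n = 4 each), with a log2 fold change of 0.14 ± 0.10 at an adjusted p of 0.262. Rragd averaged 101 ± 12.3 CPM in IP and 92.1 ± 4.13 CPM in input (SD, n = 4 each), with a log2 fold change of 0.14 ± 0.09 at an adjusted p of 0.226. Both had overlapping groups.

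Of the 5 genes of Ragulator, the lysosomal anchor of the Rag GTPases, Lamtor1, Lamtor2 and Lamtor4 rose and Lamtor3 and Lamtor5 did not pass. Lamtor2 (ENSMUSG00000028062, chr3:88549819-88553074, minus strand) had 112, 104, 127 and 125 CPM in IP libraries 1 to 4, against 51.6, 67.4, 58.2 and 59.3 CPM in input libraries 1 to 4. Lamtor4 (ENSMUSG00000050552, chr5:138255482-138259398, plus strand) had 25.7, 24.3, 21.5 and 24.2 CPM in IP libraries 1 to 4, against 11.4, 9.83, 12.1 and 13.0 CPM in input libraries 1 to 4. In neither gene did the fractions overlap, and IP stood 1.98-fold above input for Lamtor2 and 2.07-fold for Lamtor4. The log2 fold changes were 0.99 ± 0.10 at an adjusted p of 9.24e-06 for Lamtor2 and 1.05 ± 0.13 at an adjusted p of 4.17e-05 for Lamtor4. With GC and length offsets they were 0.37, adjusted p = 0.00962 for Lamtor2 and 0.53, adjusted p = 0.00315 for Lamtor4. Lamtor1, the lipid-anchored subunit that wraps the others, had 48.4, 38.7, 69.5 and 54.0 CPM in IP libraries 1 to 4, against 30.01, 25.7, 33.5 and 31.3 CPM in input libraries 1 to 4. IP library 3 was the highest and library 2 the lowest, still above input, with a log2 fold change of 0.81 ± 0.16 at an adjusted p of 0.00171, or 0.38, adjusted p = 0.0872 with GC and length offsets. Lamtor5 had 35.6, 23.0, 27.7 and 34.7 CPM in IP libraries 1 to 4, against 23.7, 24.7, 24.4 and 23.6 CPM in input libraries 1 to 4. IP library 2 was below the input range and the other 3 IP libraries above it. The log2 fold change of Lamtor5 was 0.33 ± 0.14 at an adjusted p of 0.0735, or 0.44, adjusted p = 0.00881 without IP replicate 2 and 0.42, adjusted p = 0.0209 with library totals alone. Lamtor3 averaged 26.3 ± 3.58 CPM in IP and 25.7 ± 1.42 CPM in input (SD, n = 4 each) and had a log2 fold change of 0.03 ± 0.12 at an adjusted p of 0.850.

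Several lysosomal genes carry before their start the letters CACGTG, the core of the element bound by TFEB and TFE3, which mTOR complex 1 regulates. These letters were searched from 250 bases before each RefSeq start to shortly after it (GRCm38.p6), and they read the same on both strands. They stood in 2187 of 27025 genes (8.09%) and in 7 of the 36 members with a sequence. These members are Tbc1d7, Rheb, Rragb, Rragc, Lamtor1, Lamtor4 and Sirt1. The 27025 genes are all those with a sequence and include genes left out by the filter on low counts, which all members passed. The share among tested genes was not computed, so whether 7 of 36 is many is not known. Whether the letters go with a change was not tested. The stretches before the starts of Rragc, Lamtor1, Lamtor4 and Rragb are shown because they are Rag and Ragulator genes that hold the letters, in capitals, 5′ to 3′ on the strand of the gene.
Rragc (chr4:123917274-123917373, plus strand): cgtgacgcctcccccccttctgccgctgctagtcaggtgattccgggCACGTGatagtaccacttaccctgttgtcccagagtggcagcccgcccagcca
Lamtor1 (chr7:101905722-101905821, plus strand): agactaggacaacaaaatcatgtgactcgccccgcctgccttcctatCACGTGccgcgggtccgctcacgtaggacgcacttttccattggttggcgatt
Lamtor4 (chr5:138255315-138255414, plus strand): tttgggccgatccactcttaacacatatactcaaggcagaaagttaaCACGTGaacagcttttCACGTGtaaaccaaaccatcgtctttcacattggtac
Rragb (chrX:153139784-153139883, plus strand): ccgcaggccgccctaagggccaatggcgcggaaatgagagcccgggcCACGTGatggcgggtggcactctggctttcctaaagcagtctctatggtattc
Lamtor4 holds the letters in 2 places in this stretch. They begin 112 bases before the start of Rragc, 68 before that of Lamtor1, 120 and 104 before that of Lamtor4 and, in the stretch shown, 127 before that of Rragb. A match of letters is a description and not a binding site. Tfeb and Tfe3, chosen after their values were seen, had log2 fold changes of -1.52 ± 0.37 at an adjusted p of 0.00637 and 0.44 ± 0.15 at an adjusted p of 0.0309.

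Of the kinases on either side of mTOR complex 1, Akt1 rose and Akt2, Rps6kb1 and Rps6kb2 did not pass. Akt1 (ENSMUSG00000001729, chr12:112653821-112674884, minus strand), a kinase that acts below insulin and growth factor receptors and inhibits the TSC complex, had 58.8, 70.7, 54.5 and 61.9 CPM in IP libraries 1 to 4, against 43.6, 47.2, 45.9 and 43.8 CPM in input libraries 1 to 4. The groups did not overlap, and the log2 fold change was 0.45 ± 0.09 at an adjusted p of 0.00198. Akt2, the paralog that is prominent in insulin action, had 17.2, 19.2, 14.2 and 19.9 CPM in IP libraries 1 to 4, against 16.4, 18.6, 18.9 and 22.9 CPM in input libraries 1 to 4. These values overlapped, with a log2 fold change of -0.12 ± 0.15 at an adjusted p of 0.520. Rps6kb1, which encodes S6 kinase 1, averaged 34.1 ± 4.06 CPM in IP and 37.7 ± 4.01 CPM in input (SD, n = 4 each), with a log2 fold change of -0.14 ± 0.11 at an adjusted p of 0.339. Its sign depended on the correction for GC and length, with which it was called higher (0.34, adjusted p = 0.0258). Rps6kb2 was scarce, at 5.59, 6.22, 2.21 and 5.33 CPM in IP libraries 1 to 4 and 4.55, 3.49, 5.33 and 5.45 CPM in input libraries 1 to 4. IP library 3 was the lowest of all, and the log2 fold change was 0.04 ± 0.32 at an adjusted p of 0.933.

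Among the sirtuins the mitochondrial deacylase gene Sirt3 fell and the other 4 did not pass. Sirt3 (ENSMUSG00000025486, chr7:140863666-140882309, minus strand) had 24.5, 22.2, 24.8 and 22.1 CPM in IP libraries 1 to 4, against 32.2, 30.3, 31.9 and 31.7 CPM in input libraries 1 to 4. The groups were narrow and did not overlap, with Sirt3 at 74.3% of input and a log2 fold change of -0.43 ± 0.09 at an adjusted p of 0.00236. With GC and length offsets the value was -0.65, adjusted p = 0.000226. Sirt2, a mainly cytosolic deacetylase gene that is abundant in myelin-forming cells, had 91.3, 75.9, 96.2 and 75.2 CPM in IP libraries 1 to 4, against 91.7, 101, 94.6 and 103 CPM in input libraries 1 to 4. The groups overlapped, with a log2 fold change of -0.20 ± 0.09 at an adjusted p of 0.0956, against a median of -1.74 over the 12 oligodendrocyte markers. Sirt2 was called lower with upper quartile factors (-0.34, adjusted p = 0.0114), DESeq2 (-0.24, adjusted p = 0.0454), GC and length offsets (-0.29, adjusted p = 0.0387) and without IP replicate 3 (-0.27, adjusted p = 0.0242). Sirt1, the nuclear deacetylase gene studied in AgRP neurons of mice, had 9.98, 5.50, 13.9 and 9.68 CPM in IP libraries 1 to 4, against 11.1, 9.60, 12.0 and 9.45 CPM in input libraries 1 to 4. IP libraries 2 and 3 were the lowest and the highest of all 8, and the log2 fold change was -0.11 ± 0.24 at an adjusted p of 0.747. Sirt5, a mitochondrial desuccinylase gene, averaged 2.99 ± 0.276 CPM in IP and 2.80 ± 0.387 CPM in input (SD, n = 4 each), with a log2 fold change of 0.09 ± 0.26 at an adjusted p of 0.798. Sirt6, a chromatin deacylase gene, averaged 5.78 ± 1.97 CPM in IP and 6.39 ± 0.599 CPM in input (SD, n = 4 each), with a log2 fold change of -0.15 ± 0.26 at an adjusted p of 0.678.

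Ratios of partner genes were compared within libraries, since such a ratio does not depend on how libraries are scaled. Of 10 pairs, 6 differed between IP and input without overlap, each with the smallest p that the 70 arrangements of 8 libraries allow in a 2-sided exact permutation test. The share of other gene pairs that separate in this way was not computed, so whether 6 of 10 is many is not known. Of single tested genes, 24.1% had all IP libraries above all input libraries and 24% had them below. Adjusted p-values of the ratios are over the 10 pairs. The 6 pairs share 1 p and so 1 adjusted p, which depends on how many of the 10 pairs reached the smallest p. The adjusted p-values below are therefore a joint outcome of the chosen pairs and not separate support for each. The ratio of Rictor to Rptor counts was 0.557, 0.782, 0.475 and 0.588 in IP libraries 1 to 4, against 1.07, 1.19, 1.16 and 1.12 in input libraries 1 to 4. This ratio, which is not corrected for length, was below 1 in every IP library and above 1 in every input library. The change was -0.94 on the log2 scale (exact permutation p = 0.0286, adjusted p = 0.0476). Per length of the longest coding transcript, the mean ratio (taken on the log2 scale) was 0.418 in IP and 0.802 in input. Both values are below 1. Rragd to Rragc was 1.11, 1.43, 1.69 and 1.26 in IP, against 2.01, 1.96, 2.12 and 2.12 in input. The difference was -0.60 on the log2 scale (exact permutation p = 0.0286, adjusted p = 0.0476). Akt2 to Akt1 was 0.292, 0.272, 0.261 and 0.321 in IP, against 0.376, 0.394, 0.412 and 0.523 in input, a difference of -0.57 on the log2 scale (exact permutation p = 0.0286, adjusted p = 0.0476). Rragb to Rraga was 0.531, 0.591, 0.639 and 0.538 in IP, against 0.810, 0.868, 0.878 and 0.773 in input, a difference of -0.54 on the log2 scale (exact permutation p = 0.0286, adjusted p = 0.0476). In both Rag pairs the gene that rose gained on the partner that did not pass. This follows from the fold changes of the single genes in the same libraries and is not a further result. The catalytic AMPK pair Prkaa2 to Prkaa1 was 0.875, 1.05, 0.721 and 0.782 in IP, against 1.13, 1.22, 1.12 and 1.22 in input, a difference of -0.46 on the log2 scale (exact permutation p = 0.0286, adjusted p = 0.0476). The gamma pair Prkag2 to Prkag1 was higher in IP, at 1.68, 1.39, 1.39 and 1.34 against 1.11, 1.203, 1.25 and 1.09 in input. The difference was 0.31 on the log2 scale (exact permutation p = 0.0286, adjusted p = 0.0476). The sign of each difference depends on which gene of the pair is written first.

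The other 4 pairs overlapped between the fractions. Prkab2 to Prkab1 was 5.09, 3.13, 1.46 and 1.80 in IP libraries 1 to 4, against 4.61, 5.15, 5.98 and 4.66 in input libraries 1 to 4. IP library 1 lay within the input range and the other 3 below it, a difference of -1.0 on the log2 scale (exact permutation p = 0.0857, adjusted p = 0.107). Tsc2 to Tsc1 differed by -0.36 on the log2 scale (exact permutation p = 0.0571, adjusted p = 0.0816). Camkk2 to Camkk1 differed by 0.21 on the log2 scale (exact permutation p = 0.400, adjusted p = 0.444). Rps6kb2 to Rps6kb1 differed by 0.10 on the log2 scale (exact permutation p = 0.80, adjusted p = 0.80). With any 1 library left out, 3 against 4 libraries cannot give an exact p below 0.0571, so none of the pairs could pass there.

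**Figure D3:**
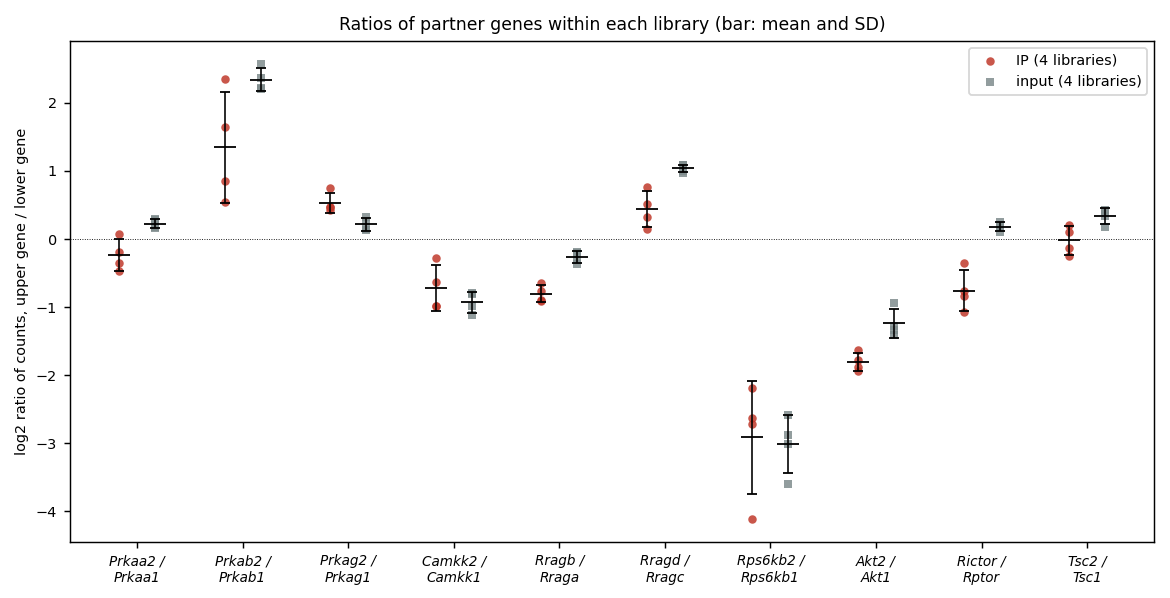
Log2 ratio of the counts of 2 partner genes in each library (vertical axis) for 10 pairs, with IP libraries as red circles left of input libraries as grey squares, and bars for mean and SD over 4 libraries. Rictor over Rptor lies above 0 in all input libraries and below 0 in all IP libraries, and the input points of both Rag pairs lie above the IP points. The ratios are not corrected for transcript length, so their position relative to 0 does not rank the 2 genes.

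Levels of different genes were compared per kb of the longest coding transcript. Lamtor2 was the highest of the 39 genes in both fractions, at 175 ± 16.2 CPM per kb in IP and 88.5 ± 9.70 CPM per kb in input (SD, n = 4 each). Next in the order of IP came Rraga, at 57.7 ± 4.94 CPM per kb in IP and 36.1 ± 2.73 CPM per kb in input. Lamtor1 stood at 47.04 ± 11.5 CPM per kb in IP and 26.9 ± 2.94 CPM per kb in input. Rheb stood at 45.0 ± 2.89 CPM per kb in IP and 29.1 ± 1.07 CPM per kb in input. Among the 5 highest genes in IP, the range of Lamtor1 over the IP libraries overlapped those of Rraga, Rheb and Sirt2. The ranges of Rheb and Sirt2 overlapped as well. Sirt2 was the highest sirtuin, at 40.0 ± 5.04 CPM per kb in IP and 46.1 ± 2.54 CPM per kb in input, and the second of all 39 genes in input. The lowest were Rps6kb2 at 1.05 ± 0.391 CPM per kb in IP and 1.03 ± 0.196 CPM per kb in input and Sirt5 at 1.23 ± 0.114 CPM per kb in IP and 1.15 ± 0.160 CPM per kb in input. Mtor ranked 28 in IP and 18 in input, at 4.603 ± 0.599 CPM per kb in IP and 9.50 ± 0.786 CPM per kb in input. Its negative regulator Deptor ranked 17 in IP and 22 in input, at 11.7 ± 1.98 CPM per kb in IP and 7.24 ± 0.225 CPM per kb in input. By this length, Deptor was above Mtor in every IP library and below it in every input library. The 5 highest genes in either fraction were the same with APPRIS principal transcripts as the length, an alternative added after seeing the data. With the shortest coding transcript 1 of the 5 highest stayed in IP and 2 in input, so the order depends on which transcript is taken.

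**Figure D4:**
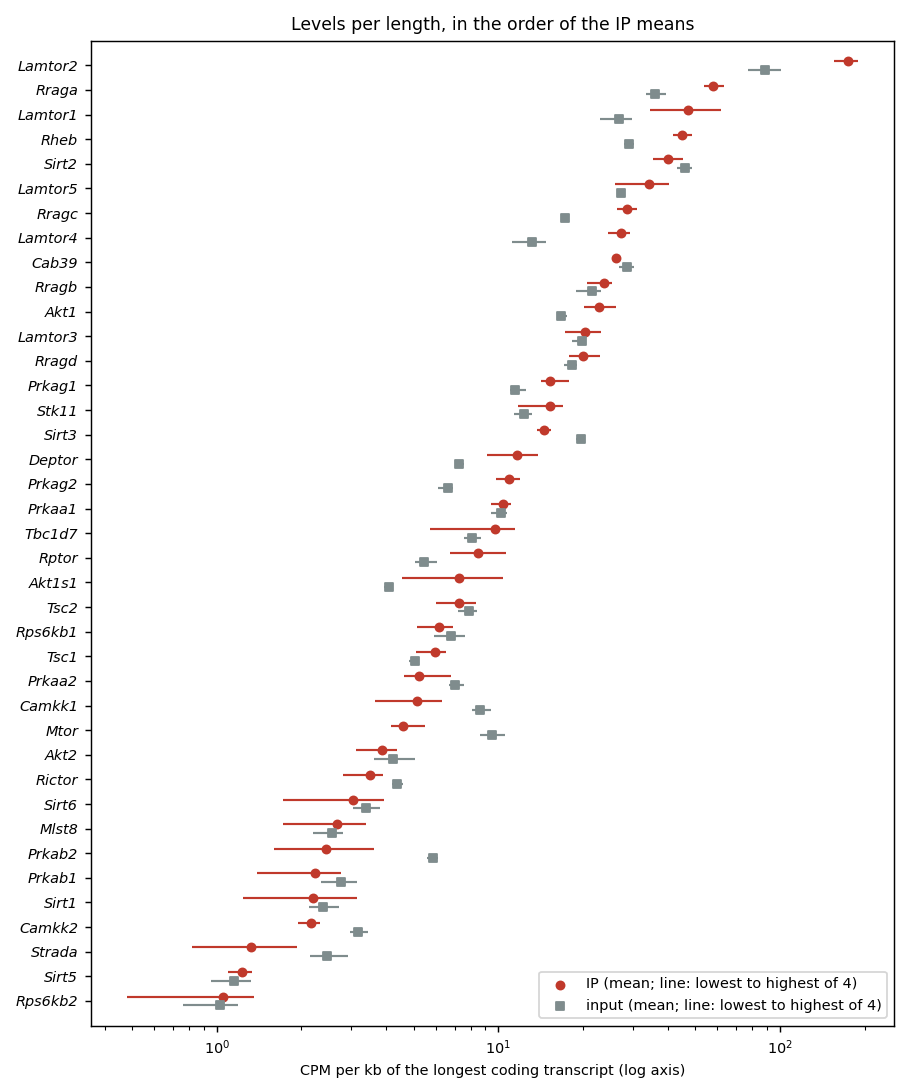
Level of each of the 39 genes as CPM per kb of its longest coding transcript (horizontal log axis), in the order of the IP means, with IP as red circles and input as grey squares (mean of 4 libraries, lines from the lowest to the highest). Lamtor2 stands apart at the top in both fractions, and the Mtor and Prkab2 ranges of IP lie left of those of input.

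The fold changes ran with transcript length, which the choice of genes did not use. Across the 39 genes Spearman's rho between log2 fold change and the length of the longest coding transcript was -0.45, and with GC content 0.30. With the length of the shortest coding transcript it was -0.18. Across 14575 tested protein-coding genes the values were -0.25 with the longest transcript, 0.12 with GC content and -0.10 with the shortest transcript. These are relations across genes, which share the same 8 libraries and are not independent replicates. Of the 6 members with up to 1500 bases, which are the 5 Ragulator genes and Tbc1d7, 3 were higher and 0 lower, beside 47.9% higher and 9.23% lower among all protein-coding genes of that length. Of the 10 members over 5000 bases, among them Mtor, Rictor and Prkaa2, 2 were higher and 4 lower, beside 16.6% and 36.6%. Of these long genes, Deptor and Rptor rose. With GC and length offsets 14 of the 20 calls remained in the same direction and 4 other genes were called. The 6 calls that ended were those of Prkaa2, Prkag1, Strada, Rictor, Akt1s1 and Lamtor1. The part of length and GC content in these differences was not tested beyond that fit.

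**Figure D5:**
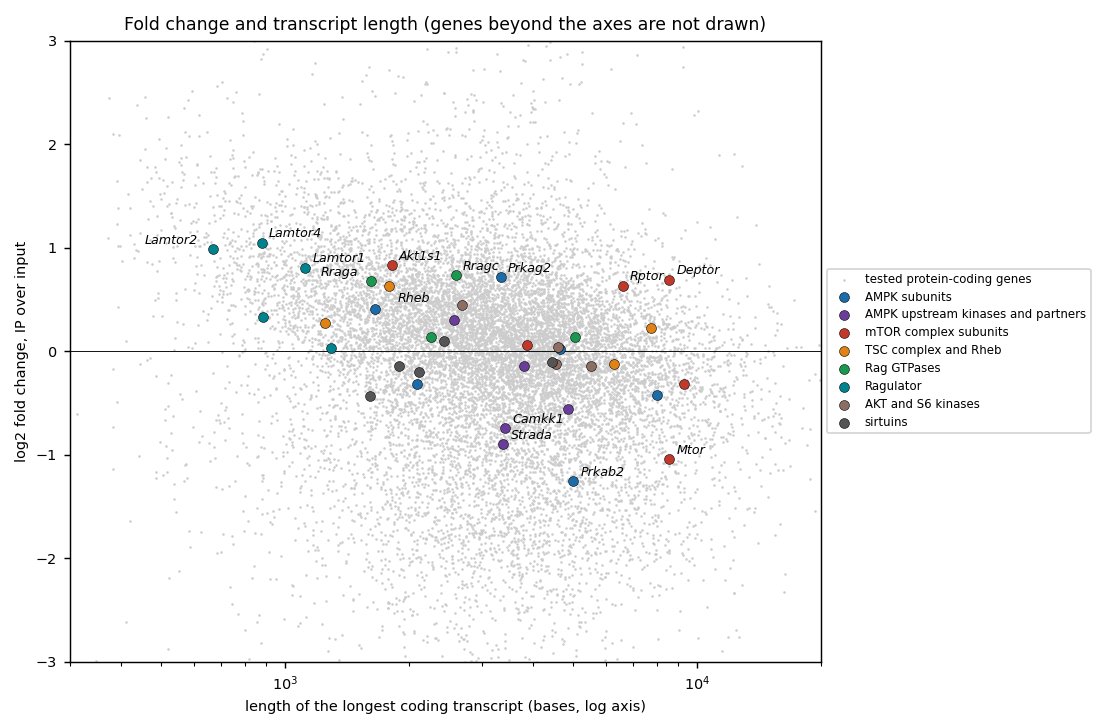
Log2 fold change of IP over input (vertical axis) against the length of the longest coding transcript (horizontal log axis) for tested protein-coding genes in grey and the 39 genes in the colours of their roles. Short Ragulator genes lie above 0, and of the longest genes Mtor lies below 0 and Deptor and Rptor above it.

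Genes around these pathways were read from 3 further lists. Of 29 tested genes related to AMPK 7 were higher and 5 lower, 24.1% and 17.2%, with a median log2 fold change of -0.08. With upper quartile factors 4 were higher and 11 lower. The 3 with the smallest p in each direction were Map3k7 (0.49 ± 0.07), the kinase TAK1, Mark4 (0.74 ± 0.14), a microtubule affinity kinase activated by LKB1, and the autophagy kinase gene Ulk1 (0.32 ± 0.07) among those that rose, and Ppm1e (-1.03 ± 0.10), a phosphatase that acts on AMPK, Brsk2 (-0.59 ± 0.09), a further LKB1 substrate kinase, and the coactivator gene Ppargc1a (-0.60 ± 0.14) among those that fell. Ppm1e averaged 62.8 ± 8.85 CPM in IP and 128 ± 11.0 CPM in input (SD, n = 4 each). Of 40 mTOR regulators and targets 11 were higher and 7 lower, 27.5% and 17.5%, with a median of 0.11. Among those that rose with the smallest p were Rps6 (1.76 ± 0.08), the S6 kinase target, whose processed copies make its counts uncertain, and the cap-binding factor gene Eif4e (0.65 ± 0.08). Among those that fell were the complex 2 partner gene Prr5l (-2.07 ± 0.30) and the mTOR inhibitor gene Ddit4l (-2.50 ± 0.41). Both were scarce in IP. Prr5l averaged 2.20 ± 1.01 CPM in IP and 9.33 ± 0.784 CPM in input (SD, n = 4 each). Ddit4l averaged 0.751 ± 0.390 CPM in IP and 4.28 ± 0.424 CPM in input. Rps6 averaged 861 ± 71.1 CPM in IP and 254 ± 22.1 CPM in input (SD, n = 4 each).

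Of 20 genes of sirtuin action and NAD metabolism 6 were higher and 4 lower, 30% and 20.0%, with a median log2 fold change of 0.12. Without input replicate 1, or without input replicate 4, 2 were lower. Nampt, the rate-limiting enzyme of the NAD salvage pathway, had 123, 117, 111 and 115 CPM in IP libraries 1 to 4, against 63.7, 65.6, 63.0 and 57.3 CPM in input libraries 1 to 4. It rose by a log2 fold change of 0.90 ± 0.07 at an adjusted p of 1.48e-06. Foxo1, a transcription factor that AKT phosphorylates and sirtuins deacetylate and that is known to act in AgRP neurons of mice, had 107, 89.9, 131 and 151 CPM in IP, against 34.3, 37.1, 33.9 and 36.6 CPM in input. IP replicates differed widely but lay far above input, with a log2 fold change of 1.76 ± 0.14 at an adjusted p of 2.04e-06. Foxo4 rose as well (1.94 ± 0.17). The genes that fell were Cd38 (-1.51 ± 0.19), an NAD-consuming enzyme, the mitochondrial NAD kinase gene Nadk2 (-0.93 ± 0.14) and the nuclear NAD synthesis gene Nmnat1 (-0.94 ± 0.28) as the 3 with the smallest p. All named genes of these lists kept their direction and call with GC and length offsets.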

How the data were processed

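The deposited table holds estimated counts per gene, made by the authors with Salmon 0.14.1 on mouse build GRCm38.p6, per the submitters' processing notes. Salmon shares reads between similar transcripts, and 15 of 39 members have counts that are not whole (tolerance 0.01). No strand setting is given in the sources used here, so reads of overlapping antisense genes could not be told apart.

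Counts were rounded and compared with edgeR 4.0.16 (R 4.3.3), as IP against input in 4 libraries each. Genes were kept by filterByExpr with a minimum count of 10, TMM factors scaled the libraries, and the quasi-likelihood test was adjusted by Benjamini-Hochberg over 17000 genes (threshold 0.05). Standard errors were not given by the fit but derived from it, as the absolute log2 fold change over the square root of the F statistic of the quasi-likelihood test. P-values measure the spread between these libraries, each a pool of 3 mice. The fit was tested on simulated data with 200 genes changed. Pair ratios used exact permutation tests over all arrangements of the libraries, and Spearman's rho was computed with scipy 1.17.1. Positions, lengths and GC content are from GENCODE M21, which held 98.8% of the gene IDs, and promoters are from RefSeq (GRCm38.p6), which held 36 of 39 members.

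Alternatives were other scalings, filters and tools (DESeq2 1.42.0, limma 3.58.1), GC and length offsets per library (splines with 4 degrees of freedom), the replicate number as a block, and each library left out. The members and lists were chosen with earlier results of these data known. The genes named were all 39 members, Mff and Agrp as checks, and from each further list the 3 called genes with the smallest p in each direction, of which 2 are not reported here. Tfeb and Tfe3 were added after their values were seen. Ribosomal and mitochondrial RNA genes (400 genes) stayed in the table except in 1 alternative.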

Additional observations from a re-analysis of the deposited data

Results flagged for a closer look

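Of 78 groups of 4 libraries, 4 held 1 library far from the other 3, where chance gives about 1 in 20 groups. IP replicate 2 had 54.2 CPM of Prkaa2, against 36.8 to 38.3 CPM in the other IP libraries. IP replicate 4 had 29.6 CPM of Prkag1, against 23.5 to 24.0 CPM in the others, and input replicate 4 had 20.8 CPM of Prkag1, against 18.3 to 18.6 CPM in the others. IP replicate 3 had 7.13 CPM of Tbc1d7, against 13.5 to 14.3 CPM in the other IP libraries. In each case the gap to the nearest library, as a share of the group's whole range, was past Dixon's critical value.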

How the results depend on the processing

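Of the 20 called genes, 14 kept direction and call under all 19 alternatives of the fit. Lamtor1 kept its call in 18 alternatives, Akt1s1 in 17, Prkag1 in 16, Prkaa2 in 15, Strada in 14 and Rictor in 12. Most, but not all, of the calls that ended are given beside their genes. Between 12 and 14 members were higher and between 6 and 9 lower with 1 library left out. Reversals of sign were among genes that were not called, and the cause was not tested. Log2 fold changes were -0.014 for Prkaa1 and -0.0034 for Lamtor3 with RLE size factors. With upper quartile factors they were -0.11 for Prkaa1, -0.072 for Mlst8, -0.10 for Lamtor3, -0.095 for Rps6kb2 and -0.040 for Sirt5. A filter of 1 CPM gave -0.0013 for Prkaa1, DESeq2 -0.014 for Prkaa1 and -0.0036 for Lamtor3, and limma-voom -0.067 for Rps6kb2. GC and length offsets gave -0.020 for Tbc1d7, -0.23 for Lamtor3, -0.079 for Lamtor5, 0.34 for Rps6kb1 and 0.014 for Sirt1. The ratio of Rps6kb2 to Rps6kb1 was -0.40 with offsets, and -0.14 to 0.50 with 1 library left out. Leaving out 1 library also gave -0.0084 to 0.068 for Prkaa1, -0.076 to 0.23 for Mlst8, -0.036 to 0.10 for Lamtor3, -0.10 to 0.29 for Rps6kb2, -0.33 to 0.090 for Sirt1 and -0.29 to 0.052 for Sirt6.

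Among genes related to AMPK, 4 were higher and 11 lower with upper quartile factors and 8 lower with DESeq2. Of the sirtuin and NAD genes 2 to 5 were lower with 1 library left out. Of the non-neuronal markers 1 was higher with library totals alone, and 0 to 1 with 1 library left out. Of the 5 highest genes per length, the shortest transcript kept 1 in IP and 2 in input. In the pair ratios 0 to 0 pairs passed with 1 library left out, where 3 against 4 libraries cannot pass, and GC and length offsets gave 7 pairs.

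Deviations of IP and input libraries with the same number correlated at 0.048 to 0.084, and those with different numbers at -0.038 to -0.0016. Each IP library thus correlated best with its own number. The labels do not say whether a number marks a shared homogenate, so the main fit did not pair the libraries. Whether they are paired cannot be settled from these correlations. With the replicate number as a block 12 members were higher and 8 lower, and over all genes 3878 were higher and 3714 lower. In the fit with the block the log2 fold change was -0.029 for Rps6kb2, and with the block and offsets it was -0.058 for Tbc1d7, -0.24 for Lamtor3, -0.096 for Lamtor5, 0.34 for Rps6kb1 and -0.038 for Rps6kb2. A paired sign-flip test with the replicate block passed 0 pairs, since 4 pairs cannot reach the threshold.

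The scarce genes had wide standard errors, and the part of depth in this was not tested. Rps6kb2, Sirt5, Sirt6 and Prkab1 averaged under 7 CPM in both fractions, with standard errors of 0.25 to 0.32 on the log2 scale, against a median of 0.12 over the 39 genes, so changes of modest size were not detectable there.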

Other observations

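The 39 genes varied more between IP libraries than between inputs. The median coefficient of variation was 13.4% in IP and 6.35% in input, and it was larger in IP for 34 of 39 genes. Over all tested genes the medians were 24.9% in IP and 9.60% in input, and 88.6% of genes varied more in IP. IP replicate 3 was the library farthest from the other IP libraries for 15 of 39 genes, beside 33.1% of all tested genes.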
